A study of Saccharomyces cerevisiae with 6 samples.

Results

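The 10 genes described here are THI2, THI3, THI4, THI6, THI7, THI20, THI72, THI73, PHO3 and PET18 of the yeast Saccharomyces cerevisiae, genes of thiamine (vitamin B1) synthesis, uptake and regulation. They were chosen by name from 5625 gene models in an RNA sequencing table, leaving out the near-identical THI5 family and the SNZ2 and SNZ3 pair, and each name matched 1 model. Polyadenylated RNA was measured in 3 strains, each from 2 aerobic bioreactor cultures described as biological duplicates. In strain IMX605 all glycolytic genes are expressed from 1 locus, placed on chromosome V, and in strain IMX606 from 1 locus placed on chromosome IX. In strain IMX372, whose libraries are titled MG aerobic, the major paralogs stand at their native loci. Each group is 1 strain, and the sources used here do not give the thiamine content of the medium. Since the libraries of IMX372 were reused from a previous submission, strain and library set cannot be told apart wherever IMX372 is compared. Libraries are named by the table's columns (R12 and R7 for IMX605, R13 and R8 for IMX606, DSE001 and DSE002 for IMX372), and the 2 values of a strain are given in that order. Gene positions are those of the table, on CEN.PK113-7D chromosome sequences.

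Thiamine is a cofactor precursor whose pyrimidine and thiazole parts are made by separate branches and then joined. In yeast Thi4 makes the thiazole, proteins of the Thi5 family make the pyrimidine, and kinases such as Thi20 phosphorylate the pyrimidine. Thi6 couples both to thiamine phosphate, and Thi80 turns thiamine into the active diphosphate. Thi7 carries thiamine in from the medium, and the acid phosphatase Pho3 releases thiamine from its phosphates outside the cell. Most of these genes are known to be shut down when thiamine is plentiful and to be switched on by Thi2, Thi3 and Pdc2 when it is scarce.

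Values are FPKM (fragments scaled by gene model length and by library total), as deposited by the authors. The libraries held 18754741 to 21370278 reads on genes, except IMX372 DSE001 with 70510681, and the 10 genes had between 112 and 5544 reads each in a library. Fold changes and tests are from limma on log2(FPKM + 1) over the 5459 genes averaging 1 FPKM or more, with Benjamini-Hochberg adjustment over all of them, and an adjusted p under 0.05 is a call. All 10 genes passed that filter. The minor glycolytic paralogs GLK1, GPM2, PYK2, PDC5, PDC6 and ADH5 were at or below 1.26 FPKM in all 6 libraries, a state that all 3 strains share and that does not tell them apart. Of the genes tested, 818 were called higher and 817 lower in IMX605 relative to IMX372, and 604 higher and 700 lower in IMX606 relative to IMX372. With median-of-ratios scaling the splits were 960 higher and 762 lower for IMX605 and 740 higher and 558 lower for IMX606. With equal sums they were 764 higher and 1018 lower for IMX605 and 581 higher and 782 lower for IMX606.

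The thiamine genes, PET18 excepted, had RNA levels below that of the median gene in all 3 strains. Strain means ran between 5.19 and 54.4 FPKM in IMX605, between 5.36 and 51.2 FPKM in IMX606 and between 3.44 and 58.4 FPKM in IMX372. In each strain 9 of the 10 lay below the median gene, which stood at 45.5 FPKM in IMX605, 44.9 FPKM in IMX606 and 45.8 FPKM in IMX372. THI4, which encodes the thiazole synthase, exceeded only 18.1% of gene models in IMX605, 17.5% in IMX606 and 11.5% in IMX372. The highest was PET18, a gene of unknown function with weak likeness to thiamine proteins, and the lowest was THI72, a relative of the thiamine transporter gene THI7. THI6 came second in each strain by its mean, though in IMX372 it overlapped the THI73 row. Below THI6 the order in the single-locus strains was THI7, THI3, THI73 and THI20, with THI3 and THI73 overlapping in IMX605. PHO3 and THI4 followed, overlapping in both strains, and then THI2 and THI72, which also overlapped. In IMX372 the order was different, the THI73 row overlapping THI3 and THI3 overlapping PHO3. There PHO3 lay above THI7, THI7 overlapped THI20, and THI4, THI2 and THI72 were at the bottom without overlap.

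**Figure D1:**
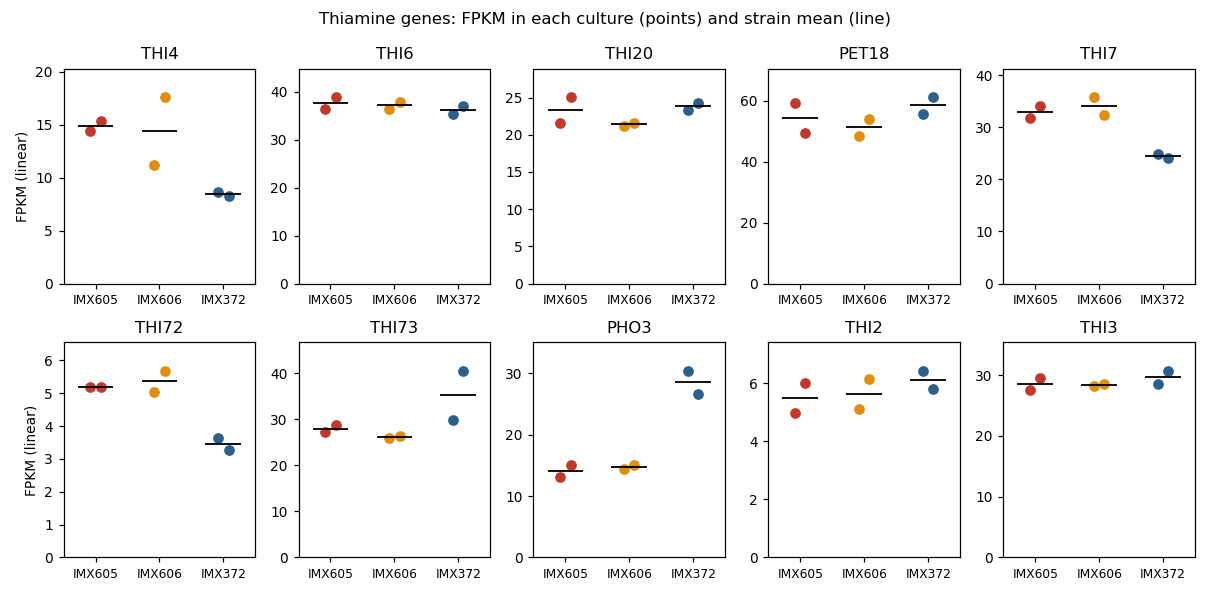
FPKM of the 10 thiamine genes in each culture on a linear axis starting at 0 (points), with the mean of each strain (line), for IMX605, IMX606 and IMX372, 2 cultures each. THI4, THI7 and THI72 lie higher and PHO3 lower in both single-locus strains than in IMX372, the THI73 row lies lower in both with widely spaced IMX372 cultures, and the other genes overlap or nearly touch.

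Against IMX372, THI4 and THI7 rose and PHO3 fell in both single-locus strains, while THI72 passed the test in IMX606 only and the other 6 genes passed in neither. In IMX605 against IMX372, 2 of the 10 were called higher and 1 lower, which is 3 of 10 beside a background of 30.0% of all genes called (15.0% higher and 15.0% lower). In IMX606 against IMX372, 3 were called higher and 1 lower, beside a background of 23.9% (11.1% higher and 12.8% lower). The share called in IMX605 is that of all genes, and the share in IMX606, 4 of 10, is above it. With only 10 genes, nothing particular to the thiamine genes is read from either share. Their median log2 change was -0.04 in IMX605 and -0.08 in IMX606, against medians of -0.03 and -0.06 over all genes tested. An unadjusted p under 0.05 was found for 4 of the 10 in IMX605, beside 42.3% of all genes, and for 5 of the 10 in IMX606, beside 37.2% of all genes. The cultures of IMX605 and IMX372 did not overlap for 5 of the 10 genes, 3 higher and 2 lower, where 69.2% of all genes did not overlap, 31.5% higher and 37.8% lower. Those of IMX606 and IMX372 did not overlap for 7 of the 10, 3 higher and 4 lower, where 62.4% of all genes did not overlap, 25.7% higher and 36.7% lower. Both comparisons share the IMX372 libraries.

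**Figure D2:**
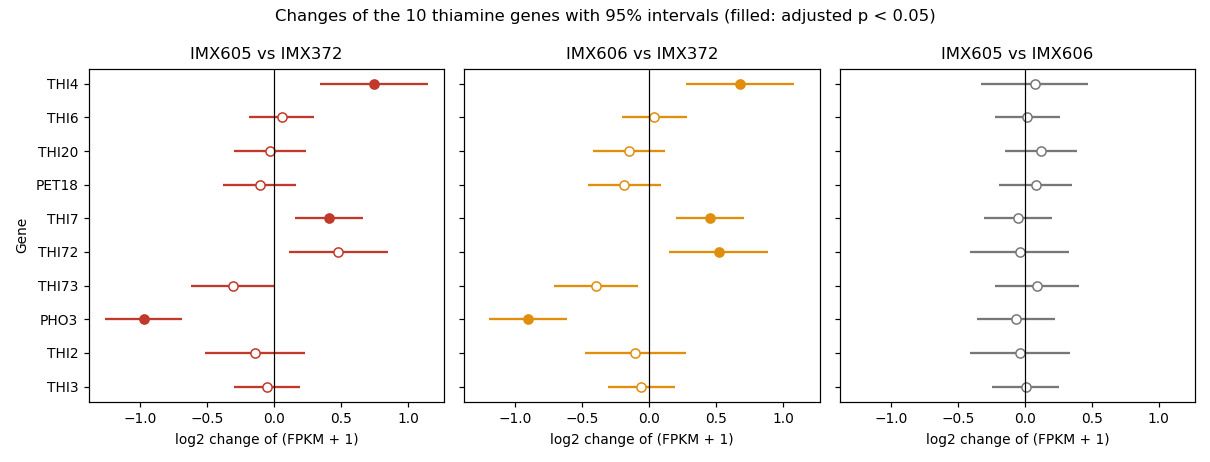
Log2 change of FPKM + 1 for each of the 10 genes (points) with its 95% interval from limma (lines), in 3 panels that set IMX605 and then IMX606 against IMX372, and IMX605 against IMX606. Filled points have an adjusted p under 0.05: THI4 and THI7 higher and PHO3 lower in the first comparison, the same with THI72 higher in the second, and none in the third.

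Of the synthesis genes, THI4 (YGR144W, chromosome VII, 803852 to 804832) changed most. It had 14.4 FPKM in IMX605 R12 and 15.4 in IMX605 R7, 11.2 in IMX606 R13 and 17.6 in IMX606 R8, and 8.67 in IMX372 DSE001 and 8.22 in IMX372 DSE002. All 4 single-locus cultures lay above both IMX372 cultures, and the IMX606 cultures lay on either side of those of IMX605. The IMX605 mean was 14.9 ± 0.701 FPKM and the IMX606 mean 14.4 ± 4.56, against 8.45 ± 0.322 for IMX372 (SD, n = 2 each), ratios of 1.76 and 1.71. THI4 rose by 0.75 on the log2 scale in IMX605 (SE 0.18, adjusted p = 0.0106, limma) and by 0.68 in IMX606 (SE 0.18, adjusted p = 0.021, limma). The 2 IMX606 cultures held 206 and 370 THI4 reads and had a coefficient of variation of 31.6%, where counting error alone gives 6.15%. Without IMX606 R8 the change in IMX606 was 0.37 (adjusted p = 0.132, limma). The IMX605 call ended without IMX605 R7 (adjusted p = 0.0606), IMX372 DSE001 (0.0573) or IMX372 DSE002 (0.092), at changes of 0.70 to 0.78. In IMX606 it also ended without IMX372 DSE001 (0.0874), without IMX372 DSE002 (0.14) and without the filter on low values (0.0737).

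THI20 and THI6, which act after the thiazole and pyrimidine are made, did not pass in either strain. THI20, a kinase gene of the pyrimidine branch (YOL055C, chromosome XV, 218383 to 220038), had 21.6 and 25.1 FPKM in IMX605, 21.2 and 21.6 in IMX606, and 23.4 and 24.3 in IMX372. The IMX605 cultures enclosed those of IMX372, and the IMX606 cultures lay just below them. Its log2 changes were -0.03 (95% interval -0.30 to 0.24) in IMX605 and -0.15 (-0.42 to 0.12) in IMX606. THI6, the coupling enzyme gene (YPL214C, chromosome XVI, 157293 to 158915), had 36.4 and 38.9 FPKM in IMX605, 36.3 and 37.9 in IMX606, and 35.3 and 37.0 in IMX372. The 6 cultures of THI6 overlapped, and the changes were 0.06 (-0.18 to 0.30) in IMX605 and 0.04 (-0.20 to 0.28) in IMX606. PET18 (YCR020C, chromosome III, 162019 to 162666) had 59.4 and 49.4 FPKM in IMX605, 48.5 and 53.9 in IMX606, and 55.6 and 61.3 in IMX372. The IMX605 cultures overlapped those of IMX372 and the IMX606 cultures lay below, with changes of -0.11 (-0.38 to 0.17) in IMX605 and -0.19 (-0.46 to 0.09) in IMX606.

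Of the uptake genes, THI7, the main thiamine transporter gene, rose in both strains (YLR237W, chromosome XII, 572181 to 573977). It had 31.7 and 34.2 FPKM in IMX605, 35.9 and 32.3 in IMX606, and 25.0 and 24.2 in IMX372. No single-locus culture overlapped those of IMX372. The IMX605 mean was 32.9 ± 1.74 FPKM and the IMX606 mean 34.1 ± 2.54, against 24.6 ± 0.547 for IMX372 (SD, n = 2 each), with log2 changes of 0.41 (SE 0.12, adjusted p = 0.0211, limma) and 0.46 (SE 0.12, adjusted p = 0.0158, limma). With a library of the comparison left out, the IMX605 change stayed between 0.36 and 0.46 while its call ended in each of these 4 fits (adjusted p = 0.0551 to 0.172, limma). In IMX606 the call ended without IMX606 R13 (adjusted p = 0.0841, limma) or IMX372 DSE002 (0.0805).

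THI72 (YOR192C, chromosome XV, 693110 to 694909), a transporter-like gene related to THI7, was higher in every single-locus culture than in both IMX372 cultures but crossed the threshold only in IMX606. It had 5.19 FPKM in both IMX605 cultures, 5.04 and 5.69 in IMX606, and 3.62 and 3.26 in IMX372, on 112 to 460 reads. The log2 changes of 0.48 in IMX605 (SE 0.17, adjusted p = 0.051, limma) and 0.52 in IMX606 (SE 0.17, adjusted p = 0.045, limma) differed by -0.04 in the direct comparison (95% interval -0.41 to 0.33). The IMX605 change passed without the filter (adjusted p = 0.0201, limma), with median-of-ratios scaling (0.0346), without limma's trend (0.0133), with the 2 strains alone (0.0279) and without IMX606 R13 (0.0267) or R8 (0.0277). The IMX606 change did not pass with the 2 strains alone (0.0773), nor in 5 of the 6 fits with a library left out. On the reference strain's sequence, THI7 and THI72 are 84.3% identical and share a run of 74 identical bases, and THI72 and the nicotinamide riboside transporter gene NRT1 share a run of 106. The sources used here do not say how reads that match more than 1 of these genes were counted.

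The row named PHO3 (YBR092C, chromosome II, 417320 to 418723), after the thiamine-repressible acid phosphatase gene, changed more than any other of the 10 in both comparisons with IMX372. It had 13.1 and 15.1 FPKM in IMX605, 14.5 and 15.0 in IMX606, and 30.5 and 26.7 in IMX372. The single-locus cultures lay together, far below both IMX372 cultures. The IMX605 mean was 14.1 ± 1.46 FPKM and the IMX606 mean 14.8 ± 0.397, against 28.6 ± 2.69 for IMX372 (SD, n = 2 each), or 49.3% and 51.6% of the IMX372 mean. PHO3 fell by 0.97 on the log2 scale in IMX605 (SE 0.13, adjusted p = 0.000254, limma) and by 0.91 in IMX606 (SE 0.13, adjusted p = 0.000495, limma). Both calls held in all 15 alternatives tried, with adjusted p of at most 0.00918 in IMX605 and 0.0149 in IMX606 (limma). Its direction was thus opposite to that of THI4 and THI7.

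The PHO3 row differs from the reference strain in its surroundings. In the S288C reference (assembly R64), PHO3 is followed by PHO5, a phosphate-regulated acid phosphatase gene with 86.6% identity to it, and PBY1 comes after PHO5. The deposited table has no row named PHO5, and PHO3 lies between TIM12 and PBY1. The deposited PHO3 model, 1404 bases long, lies 213 bases from TIM12, the distance of PHO3 from TIM12 in S288C. It lies 1084 bases from PBY1, the distance of PHO5 from PBY1 in S288C, where PHO3 itself lies 2934 bases away. One acid phosphatase model thus stands where S288C has both, with the spacing of PHO3 on one side and of PHO5 on the other. The model is on the minus strand, so its promoter side faces PBY1, where the spacing is that of PHO5 in S288C. The spacing of PHO3 is at its downstream end. Whether the sequence on the promoter side is that of PHO3 or of PHO5 was not tested. No sequence of the strains' own genome was used here. As PHO5 has a phosphate-controlled promoter, phosphate genes are given beside PHO3. Of 9 listed, PHO5, PHO11 and PHO12, the acid phosphatase genes most like PHO3, had no model or several and were not tested. Of 6 tested, 2 rose and 0 fell in each single-locus strain, beside 15.0% and 11.1% of all genes called higher, with a median change of -0.08 in IMX605 and 0.00 in IMX606. PHO89, a phosphate transporter gene, had 13.1 and 18.7 FPKM in IMX605, 6.89 and 29.5 in IMX606, and 3.42 and 3.61 in IMX372, with changes of 1.89 and 1.78 (adjusted p = 0.00859 and 0.0141, limma). SPL2, an inhibitor gene of phosphate uptake, rose by 1.45 and 1.43 (adjusted p = 0.0406 and 0.0495, limma). PHO84, the high-affinity phosphate transporter gene, had 7.24 and 20.4 FPKM in IMX605, 5.92 and 30.0 in IMX606, and 16.6 and 17.7 in IMX372, and did not pass. Its direction rested on single libraries, with changes of -1.14 without IMX605 R7 and 0.24 without IMX605 R12 in IMX605. In IMX606 it was called lower without IMX606 R8 (-1.39, adjusted p = 0.00266, limma) and stood at 0.77 without IMX606 R13. The PHO89 and SPL2 calls ended in both strains when either IMX372 library was left out, and the SPL2 calls also without IMX605 R7 in IMX605 and without IMX606 R8 in IMX606. In IMX606, the PHO89 change was 0.81 without IMX606 R8 and 2.76 without IMX606 R13, and that of SPL2 was 0.48 and 2.38 in the same fits. In IMX605, the SPL2 change was 0.95 without IMX605 R7. The part of phosphate supply in the PHO3 values was not tested.

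**Figure D3:**
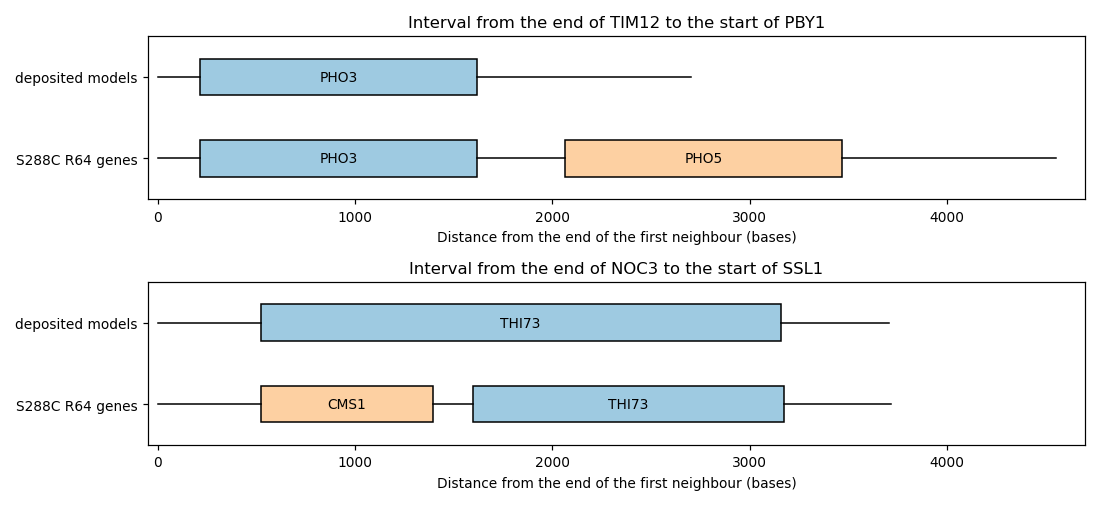
Gene models as deposited (upper row) and genes of the S288C reference (lower row) over the interval from TIM12 to PBY1 and from NOC3 to SSL1, drawn to scale in bases from the end of the first neighbour. The deposited PHO3 model occupies an interval that holds PHO3 and PHO5 in S288C, and the deposited THI73 model of 2636 bases occupies nearly the interval that holds CMS1 and THI73.

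THI73, a permease-like gene proposed to act in carboxylic acid uptake, did not pass in either strain, and its row covers more than that gene (YLR004C, chromosome XII, 141932 to 144567). The model is 2636 bases long, where THI73 has 1572 in S288C, and it is the only one of the 10 whose length differs from the reference gene. In S288C the neighbouring gene CMS1 (876 bases) lies 203 bases from THI73 on the side of NOC3, the pair spans 2651 bases, and the deposited table has no row named CMS1. Both the THI73 model and CMS1 in S288C lie 520 bases from NOC3. Its FPKM is therefore read here as that of a merged model, and the shares of THI73 and CMS1 in it cannot be told apart. The row had 27.2 and 28.7 FPKM in IMX605, 25.9 and 26.4 in IMX606, and 29.8 and 40.6 in IMX372. The IMX372 cultures lay above the others but far apart, at 1.36 times each other. The changes were -0.31 in IMX605 (95% interval -0.62 to 0.01, adjusted p = 0.126, limma) and -0.40 in IMX606 (-0.71 to -0.09, adjusted p = 0.0639, limma). Without IMX372 DSE001 they were -0.52 (adjusted p = 0.0254, limma) and -0.62 (0.0192), and without IMX372 DSE002 they were -0.09 (0.649) and -0.18 (0.375).

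The regulators THI2 and THI3 did not pass. THI2, the zinc finger activator of the thiamine genes (YBR240C, chromosome II, 694064 to 695416), had 4.96 and 5.99 FPKM in IMX605, 5.12 and 6.16 in IMX606, and 6.44 and 5.80 in IMX372. Its changes were -0.14 (95% interval -0.52 to 0.23) in IMX605 and -0.10 (-0.48 to 0.27) in IMX606, on 130 to 614 reads. THI3, a decarboxylase-like protein that binds thiamine diphosphate and acts with Thi2 and Pdc2 (YDL080C, chromosome IV, 310346 to 312175), had 27.6 and 29.5 FPKM in IMX605, 28.2 and 28.6 in IMX606, and 28.5 and 30.8 in IMX372. The cultures of THI2 and of THI3 overlapped between all strains. The THI3 changes were -0.05 (-0.30 to 0.20) in IMX605 and -0.06 (-0.31 to 0.19) in IMX606.

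Between IMX605 and IMX606, limma called 0 of the 10 genes, 0 had an unadjusted p under 0.05 and voom on recovered reads called 0, beside a background of 0.202% of all genes called and 3.65% with an unadjusted p under 0.05. The cultures did not overlap for 2 genes, THI20 and the THI73 row, both higher in IMX605, beside 28.4% of all genes without overlap (15.7% higher and 12.7% lower). Changes ran from -0.06 for PHO3 to 0.12 for THI20, and the intervals of all 10 genes lay within 0.48 of 0 on the log2 scale. The widest was that of THI4, from -0.33 to 0.48.

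The copies left out of the 10 genes showed larger differences. Of the listed THI5, THI11, THI12 and THI13, which encode the pyrimidine synthase, and SNZ2 and SNZ3, which act in vitamin B6 supply for it, all 6 rose in both strains, beside backgrounds of 15.0% and 11.1% of all genes called higher. Their median change was 1.49 in IMX605 and 1.18 in IMX606. THI11 had 10.9 and 11.8 FPKM in IMX605, 9.96 and 11.4 in IMX606, and 2.43 and 2.35 in IMX372, changes of 1.86 and 1.78 (adjusted p = 5.41e-06 and 8.48e-06, limma). SNZ3 had 18.4 and 24.7 FPKM in IMX605, 14.7 and 20.6 in IMX606, and 8.30 and 6.95 in IMX372. Since THI11 is 98.8% identical to THI5 and SNZ3 is 99.3% identical to SNZ2, levels of single copies are uncertain. For the same reason the 6 calls are not 6 separate results to set beside the background. Without IMX372 DSE002 the number called in IMX606 was 3, the calls of THI5, THI13 and SNZ2 ending, and without IMX372 DSE001 it was 5. In IMX605 it was 6 in each fit with a library left out. SNO3 had several models in the table and no row was named SNO2, so neither was counted.

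Among other thiamine genes, THI80 was called. Of THI21 and THI22, kinase relatives of THI20, the pyrophosphokinase gene THI80, NRT1, the activator gene PDC2 and the mitochondrial carrier gene TPC1, 0 rose and 1, THI80, fell in each strain, beside 15.0% and 12.8% of all genes called lower. Their median changes were 0.01 and -0.02. THI80 had 46.7 and 48.3 FPKM in IMX605, 45.7 and 43.6 in IMX606, and 55.7 and 66.2 in IMX372, with changes of -0.35 and -0.44 (adjusted p = 0.0429 and 0.0204, limma). Both calls ended without IMX372 DSE002, that in IMX605 also without either IMX605 library and that in IMX606 also without IMX606 R8. The THI80 change was -0.23 in IMX605 without IMX372 DSE002. PDC2 had changes of -0.29 (95% interval -0.61 to 0.02) and -0.17 (-0.49 to 0.14). Without IMX372 DSE001 PDC2 was called lower in IMX605 (-0.50, adjusted p = 0.0374, limma) and stood at -0.38 in IMX606, and without IMX372 DSE002 it stood at -0.09 and 0.03.

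**Figure D4:**
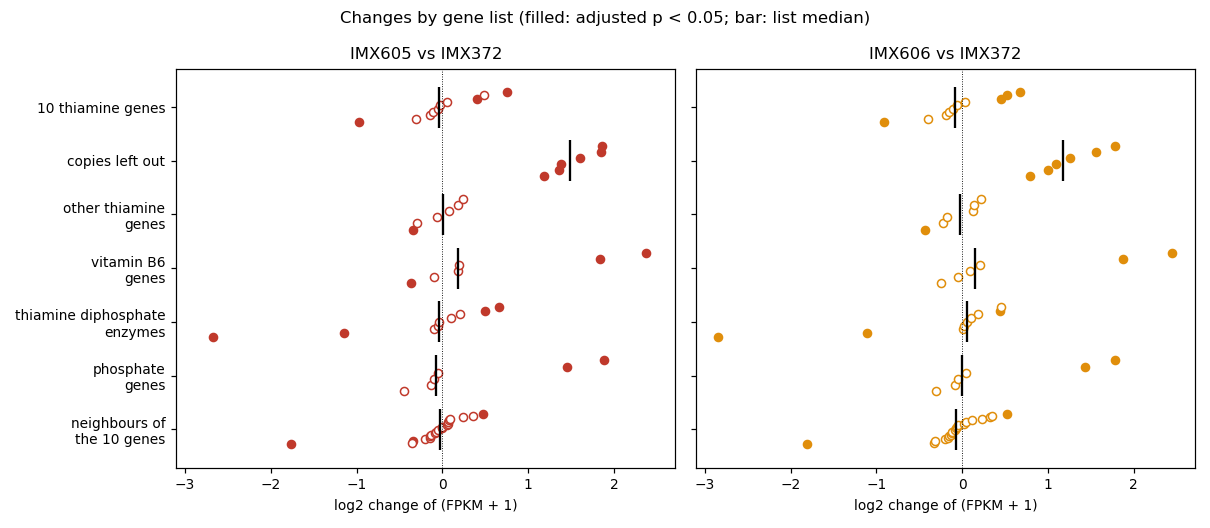
Log2 change of FPKM + 1 for each gene of 7 lists in IMX605 against IMX372 (left) and IMX606 against IMX372 (right). Filled points have an adjusted p under 0.05 and the bar is the list median: 1.49 and 1.18 for the copies left out, against -0.04 and -0.08 for the 10 thiamine genes.

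In the list of vitamin B6 genes, 2 of 6 rose in each strain, beside 15.0% and 11.1% of all genes called higher. One, the pyridoxal kinase gene BUD16, fell in IMX605 (-0.37, adjusted p = 0.0287, limma) and did not pass in IMX606 (-0.25, adjusted p = 0.133), and its direct difference between IMX605 and IMX606 was -0.12 (95% interval -0.36 to 0.12). The BUD16 call ended without IMX605 R12, IMX605 R7 or IMX372 DSE002. SNZ1, a pyridoxal phosphate synthase gene, had 333 and 530 FPKM in IMX605, 331 and 596 in IMX606, and 83.4 and 77.6 in IMX372. Its changes were 2.37 and 2.45 (adjusted p = 3.36e-05 and 2.82e-05, limma), and those of its neighbour and partner SNO1 were 1.84 and 1.88. Both were called in every fit with a library left out.

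Of 9 enzymes tested that use thiamine diphosphate, 2 rose and 2 fell in IMX605, beside 15.0% of all genes called in each direction. In IMX606, 1 rose and 2 fell, beside 11.1% called higher and 12.8% lower, and the list medians were -0.04 and 0.06. ARO10, a decarboxylase gene of amino acid breakdown, had 1.93 and 2.72 FPKM in IMX605, 1.26 and 2.82 in IMX606, and 18.3 and 22.0 in IMX372. TKL2, the minor transketolase gene, averaged 2.64 FPKM in IMX605 cultures and 2.72 in IMX606 cultures, with 7.04 in those of IMX372. The falls of ARO10 (-2.67 and -2.84) and TKL2 (-1.14 and -1.11) were called in every fit with a library left out. KGD1, of the 2-oxoglutarate dehydrogenase complex, rose by 0.50 and 0.45 (adjusted p = 0.00662 and 0.0147, limma), calls that ended without IMX605 R7 in IMX605 and without IMX606 R8 or either IMX372 library in IMX606. PDC1, a relocated gene of pyruvate decarboxylase, rose in IMX605 (0.66, adjusted p = 0.0357, limma) and did not pass in IMX606 (0.45, adjusted p = 0.142), with a direct difference of 0.21 (95% interval -0.26 to 0.67) between IMX605 and IMX606. The call in IMX605 ended without IMX605 R12 or either IMX372 library. In IMX606, PDC1 was called higher without IMX606 R8 (0.88, adjusted p = 0.000113, limma) and stood at 0.03 without IMX606 R13. PDC5 and PDC6 were below the filter.

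Of the 20 models nearest to the 10 genes, 1 rose and 2 fell in IMX605, and 1 rose and 1 fell in IMX606, beside 30.0% and 23.9% of all genes called. Beside PHO3, TIM12 changed by -0.08 and -0.20 and PBY1 by -0.05 and 0.05, none of them called. Beside THI4, ENP2, a ribosome biogenesis gene, changed by -0.34 (adjusted p = 0.0432, limma) in IMX605 and -0.31 (adjusted p = 0.073) in IMX606, opposite in sign to THI4. The ENP2 call ended without IMX605 R12, IMX605 R7 or IMX372 DSE002, as did that of VVS1 beside THI2, which rose by 0.47 in IMX605 (adjusted p = 0.0409, limma). VVS1 did not pass in IMX606 (0.35, adjusted p = 0.128, limma), and without IMX372 DSE002 its changes were 0.23 and 0.11. Beside THI3, MRK1, a glycogen synthase kinase relative, averaged 3.20 FPKM in IMX605 cultures and 3.10 in IMX606 cultures, with 13.3 in those of IMX372. MRK1 fell by 1.77 and 1.81 (adjusted p = 1.69e-05 and 1.64e-05, limma) while THI3 itself did not pass. Beside THI72, the translocase gene ULS1, on the opposite strand and 1433 bases away, changed by 0.36 (adjusted p = 0.0746, limma) and 0.52 (adjusted p = 0.02), the IMX606 call ending without IMX606 R13 or either IMX372 library.

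Across the 6 cultures, the profiles nearest to that of THI4 were those of PUN1, YPS5, TOH1, OSW2 and CAR1, by the Euclidean distance of centred log2(FPKM + 1) values among 5449 other genes. PUN1, a plasma membrane protein gene, was the nearest at 0.13. It had 168 and 172 FPKM in IMX605, 132 and 208 in IMX606, and 99.9 and 106.5 in IMX372. As PUN1 was chosen by nearness over these same cultures, its difference between the IMX606 cultures is part of that choice. CAR1, the arginase gene, had 67.6 and 77.8 FPKM in IMX605, 56.6 and 89.9 in IMX606, and 43.6 and 37.4 in IMX372. Nearest to PHO3 were the zinc transporter gene ZRT1 at 0.08, TIR2, TKL2, IML3 and model 1 of YNR048W. ZRT1 had 21.1 and 24.8 FPKM in IMX605, 23.2 and 23.5 in IMX606, and 50.9 and 42.5 in IMX372. These likenesses rest on 6 cultures from 2 library sets and describe the profiles only.

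**Figure D5:**
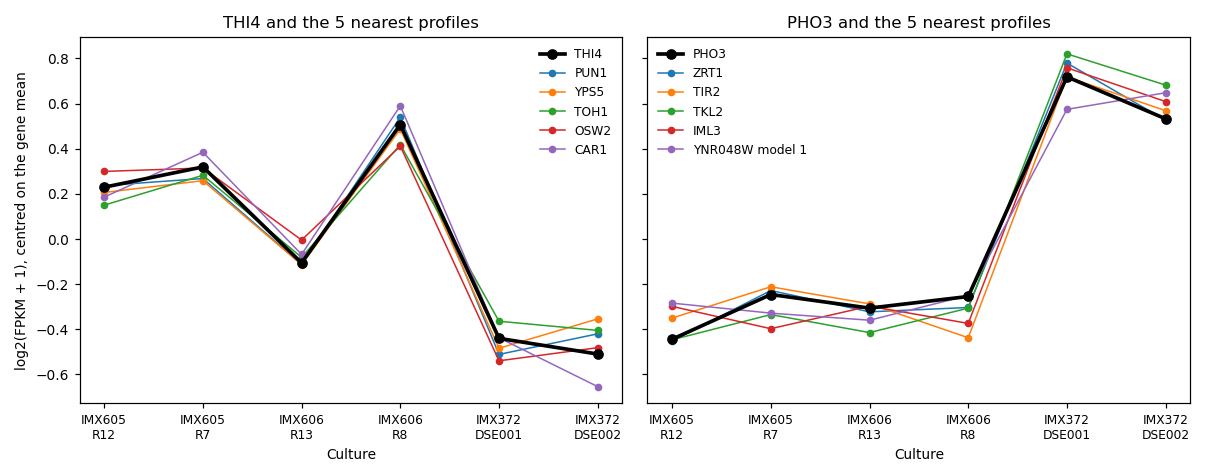
Log2(FPKM + 1) centred on each gene's mean over the 6 cultures, for THI4 (left) and PHO3 (right) in black with the 5 genes of nearest profile in colour, and cultures of IMX605, IMX606 and IMX372 along the axis (lines join values of a gene). THI4 and its nearest genes are high in IMX606 R8 and low in both IMX372 cultures, and PHO3 and its nearest genes are high in both IMX372 cultures.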

How the data were processed

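RNA came from hot-phenol extraction and was read on an Illumina instrument from stranded mRNA libraries, per the labels' protocols. Tools listed without role or order, per the submitters' processing notes, are DESeq2, edgeR, featureCounts, SAMtools and STAR 2.5.4a. The values are FPKM as deposited by the authors, 1 table of 5625 gene models on CEN.PK113-7D sequences, with build and strand setting unstated in the sources at hand. Columns name strain and library but not the replicate number of the labels.

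Each FPKM value times model length was a whole multiple of 1 step per library for 100.0% of values (tolerance 0.01), which gave reads on genes. Counting error is that of these reads only. The floor of 3 reads on a model of 1 kb was 0.0425 to 0.16 FPKM. Log2(FPKM + 1) of the 5459 genes averaging 1 FPKM or more was fitted with limma 3.58.1 in R 4.3.3 over all 6 libraries, strain being the only term, and limma's trend on (3 residual and 8.38 prior degrees of freedom). The fit was tested on simulated counts that had the same spread setting for every gene and no difference between library sets. That setting is simpler than these data, and no support for the calls is drawn from it. A p-value sets a strain difference against the spread between these cultures within strains. That spread is pooled over the 3 strains and moderated by limma towards the spread of other genes.

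Members and lists were chosen with earlier results of these data known. The naming rule takes all 10 members, up to 4 called genes a list (neighbours of the members being 1 list), and the 5 profiles nearest to THI4 and to PHO3. PHO84, PDC2, TIM12, PBY1, NRT1, THI5 and THI13 fall outside this rule and were chosen after their values were seen. Names and gene order, and likeness by BLAST 2.17.0 (near-identical at 95% over 200 bases), come from the S288C reference R64, from which no coordinates or sequences are printed. Tried as alternatives were voom on the recovered reads, fits of 2 strains alone, fits without the trend, scaling by equal sums or median-of-ratios factors, pseudocounts of 0.1 and 5, a filter at 5 FPKM or none, and leaving out each library. Left-out libraries for the lists were added after seeing the data. Python 3.11.15, numpy 2.4.6, pandas 2.3.3 and matplotlib 3.10.9 were used.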

Additional observations from a re-analysis of the deposited data

How the results depend on the processing

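No called change of the 10 genes turned its direction in any alternative. Against IMX372, the changes of PET18, THI20 and THI3 in IMX605 and of THI2 in IMX606, which were not called, took both signs. Of 298 values of single genes against IMX372, 271 kept their side of the threshold, 19 lost the call and 8 gained it. The 298 include genes not called in the main fit, which kept their side by staying uncalled. All losses were in THI4, THI7 and THI72. THI4 lost its call in 3 of 15 alternatives in IMX605 and 4 of 15 in IMX606. THI7 lost it in 4 of 15 and 2 of 15, and THI72 in 6 of 14 in IMX606. PHO3 lost 0 in either strain. With each library left out in turn, the number of the 10 genes called ran from 1 to 4 in IMX605 against IMX372 (3 with all libraries) and from 1 to 3 in IMX606 against IMX372 (4 with all). PHO3 was the 1 gene called without IMX372 DSE002 in both, and without IMX605 R7 in IMX605, while 2 were called without IMX606 R8 in IMX606. The number of all genes called ran from 802 (without IMX372 DSE002) to 1942 in IMX605 against IMX372, with 812 without IMX605 R7 and 1031 without IMX605 R12. It ran from 597 (without IMX372 DSE002) to 1256 in IMX606 against IMX372, and from 6 (without either IMX372 library) to 97 (without IMX606 R13) in IMX605 against IMX606, with 7 without IMX605 R7 and 17 without IMX606 R8. That count was 11 with all libraries, 5 with no filter and 6 with only the 2 strains compared. Fits with a library left out have fewer residual degrees of freedom, and the lone library of a strain is taken to vary like the others. In IMX605 against IMX606, 0 of the 10 were called in each of the 15 alternatives. THI72 was not tested at a mean of at least 5 FPKM. No paired analysis was possible because the columns of the table carry no replicate number of the labels, and no label pairs the library numbers.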

Other observations

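In both single-locus strains, some genes of the lists were higher in libraries R7 and R8 than in R12 and R13. No label explains these numbers or groups these libraries, and the grouping used here was made with their values known. SNO1 had 111 FPKM in IMX605 R7 and 124 in IMX606 R8, against 65.4 in IMX605 R12 and 62.5 in IMX606 R13. SPL2 had 10.7 FPKM in IMX605 R7 and 14.9 in IMX606 R8, against 4.90 in IMX605 R12 and 3.25 in IMX606 R13. PHO84 and PHO89 were likewise higher in R7 and R8. Of the 10 thiamine genes, 7 were higher in R7 and R8 in both strains and 0 were lower in both, beside 42.5% and 21.2% of all genes tested. Among the 7, THI4 was higher by 1.07 times in IMX605 and 1.58 times in IMX606. The others were THI2, THI3, THI6, THI20, the THI73 row and PHO3. In IMX606, THI3, the THI73 row, THI20 and PHO3 were higher by only 1.01, 1.02, 1.02 and 1.04 times. Their coefficients of variation there were below counting error, while those of THI2, THI4 and THI6 were above it. In IMX605 the same 4 were higher by 1.07, 1.05, 1.16 and 1.16 times, above counting error. Median-of-ratios factors were also higher in R7 than R12 and in R8 than R13. The part of such a library-wide shift in the count of 7 was not tested. The part of culture conditions in the differences between these groups of libraries was not tested either.

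The gene model of NRT1 also departs from the reference, at 2174 bases where S288C has 1797, so its FPKM is not on the same span.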
